A study of Mus musculus with 115 samples.

Results

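The constructs described here carry a transcription factor motif, or no motif, in a sequence context that the study names non-nucleosomal. They are 24 of the 275 constructs of the series, chosen as every construct whose name carries that prefix in the GCH profiles of the groups non_nuc_pool1, non_nuc_pool2 and non_nuc_pool3. There are 17 motif constructs, 6 constructs named as partners by the suffix "_r", and 1 construct without a motif, against which each of the other 23 was compared. Each pool had 3 libraries, which makes 9 of the 115 libraries of the series. Pool 1 held ATF4, BHLHE40, CTCF, OctSox, REST, RFX2, TRP53 and the construct without a motif. Pool 2 held CUX1, MTF1, ZFP423 and the partners ATF4_r, CTCF_r, OctSox_r, REST_r and TRP53_r. Pool 3 held ARNTL, BANP, BANP_r, E2F7, GMEB2, SRF, TCF7 and 1 other motif construct. All 9 libraries came from cells labelled as mouse embryonic stem cells of the line 129S6/SvEvTac, with no treatment named, and no sample without the inserted sequences was among them. What the suffix "_r" stands for, how each motif is oriented and where the amplicon lies in the genome are not given in the sources used here, so positions are counted along the amplicon and no sequence is printed.

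The assay was amplicon NOMe-seq. Nuclei are treated with a GpC methyltransferase, an enzyme that methylates cytosines where DNA is not covered by a nucleosome or another bound protein, and bisulfite sequencing then reads the methylation. A GCH site is a GC followed by A, C or T, so its methylation is not the cell's own CpG methylation. A bound transcription factor protects the few bases it covers, while the DNA on either side becomes more accessible where the factor displaces or positions nucleosomes. A low level inside a motif with high levels beside it is therefore the classic picture of an occupied site. Factors differ widely in this ability, and the zinc finger proteins CTCF and REST are textbook examples of strong binders with well-positioned nucleosomes around them.

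Each value is the percentage of reads called methylated at a site. No read counts come with the values, so depth is unknown and no interval or detection limit is given. Library medians lay between 41.5% and 60.6%, and the lowest was that of the first library of pool 1, which holds the construct without a motif. The labels do not tell whether replicates came from separate cultures, so p-values measure only the spread between these libraries, which may be technical. Of 2796 values, 292 were missing. The construct without a motif had 31 sites with values, and 30 of them were shared with all 23 other constructs. Of these 30, 7 lay within 40 bp of the motif window, 4 on the side of lower positions and 3 on the side of higher positions, and 23 lay farther away. The window is the span, inside the gap between the shared sites 157 and 213, in which the positions of the sites differ between constructs. The only site of the control inside the window, at 189, was shared with no other construct, so window sites could not be compared with it.

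Without a motif, the amplicon was not uniformly open. The 9 sites from 47 to 96 had means between 74.5% and 81.95%, and the 4 sites from 140 to 157 had means between 75.1% and 80.7%. Between these open stretches lay 5 sites from 109 to 133 with means of only 19.8% to 26.1%. At position 115 the libraries had 10.9%, 32.5% and 16.0%, so the second library stood above the other two there. The window site at 189 had 61.8%, 68.8% and 70.7%. On the other side of the window the 6 sites from 213 to 259 had means between 24.5% and 41.8%. The 5 sites from 292 to 326 had means between 22.4% and 41.5%. In the absence of a motif, the DNA on the side of higher positions was thus much less accessible than the near sites on the side of lower positions.

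The label "non-nucleosomal" was checked against the construct without a motif in the nucleosomal context, measured in 3 libraries of another pool. Both shared 20 position numbers, although their backbones differ and the same number need not be the same sequence. Of these 20, 15 passed the limma test at an adjusted p under 0.05 (75.0%), 7 higher and 8 lower in the non-nucleosomal context. Every site had the same standard error, 0.35 on a log2 scale. The window site at 189 averaged 67.1% ± 4.66 in the non-nucleosomal and 28.3% ± 4.80 in the nucleosomal context (SD, n = 3 each). Site 213 averaged 40.4% ± 7.52 in the non-nucleosomal and 17.3% ± 4.59 in the nucleosomal context (SD, n = 3 each). The window and its borders were thus more accessible in the context labelled non-nucleosomal. The 5 sites from 292 to 326 and the sites 33, 96 and 115 went the other way, as at 297, with 41.5% ± 5.73 in the non-nucleosomal and 72.6% ± 0.851 in the nucleosomal context (SD, n = 3 each). The largest difference was at 115, in the low stretch, with 19.8% ± 11.3 in the non-nucleosomal and 86.5% ± 0.692 in the nucleosomal context (SD, n = 3 each), while 59 averaged 74.5% in the non-nucleosomal and 14.5% in the nucleosomal context. Within 40 bp of the window, 140 and 148 did not pass, and neither did 246, 249 and 259 farther out.

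Across all motifs, most of the calls lay just beyond the window on the side of higher positions. Of 690 comparisons of a site with the construct without a motif (23 constructs at 30 sites), 61 passed the limma test (8.84%), 59 of them higher (8.55%) and 2 lower (0.29%). From 213 to 259, 36 of 138 passed, 35 higher and 1 lower, in 8 constructs. From 292 to 326, 7 of 115 passed and from 140 to 157, 5 of 92. In the stretch from 47 to 96 4 of 207 passed, and in the low stretch from 109 to 133 2 of 115 passed. The calls from 47 to 157 were all in constructs of pool 3, which did not hold the control. The remaining 7 calls were at the single site 33, in 7 of 23 constructs. The values of both groups did not overlap at 132 of the 690 sites (19.1%), and 120 were at an unadjusted p under 0.05. By family, the 4 zinc finger constructs CTCF, MTF1, REST and ZFP423 had 15 of 120 sites higher and 1 lower, and the 2 E-box constructs ARNTL and BHLHE40 had 6 of 60 higher, with median differences of 2.48 and 4.44 percentage points. The single MADS box construct, SRF, had a median difference of 10.4 percentage points and the bZIP construct, ATF4, one of 0.30. The 6 partners had 0 of 180 sites past the test, and their median difference was 2.32 percentage points, against 3.41 over all 690 sites.

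These counts carry a limit that comes from the pools. limma gave every site the same standard error of 0.43 on the log2 scale of the M-value, log2((f + 0.01)/(1 − f + 0.01)) with f the methylated fraction, so a call rests on a spread shared by all constructs. Without the third libraries 17 of 690 sites passed, among them 6 in BANP, 5 in CTCF and 5 in REST. The shared standard error was larger in that fit, at 0.60. The median difference was 0.29 on that scale, and levels centred on the far sites of each library moved it to -0.02. With that centring 59 sites passed, 39 higher and 20 lower, and none of the 61 sites changed its sign. Against the median of the other constructs of the same pool, which takes out differences between pools, 101 of 714 sites passed (14.1%), 56 higher and 45 lower. That test was also paired by library, unlike the main one, so its counts differ in both reference and test. In pool 1 its reference came from several motifs with higher sites. Over 213 to 259 the 7 motif constructs of pool 1 had a median of 47.7%, against 32.9% without a motif. A construct near that median can miss the threshold there although it lies above the control. Of the 61 sites, 41 also passed in that comparison. For the 7 motif constructs of pool 1 the control sits in the very same libraries, and differences taken within each library passed at 60 of 210 sites (28.6%), 53 higher and 7 lower, against 19 without that pairing. There too every site had the same standard error, 0.20. The within-library p-values of sites thus do not measure the spread of the differences at a single site.

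CTCF, a zinc finger protein known for insulation and chromatin loops, had the highest mean of the 17 motifs in the stretch from 213 to 259. Averaged over these 6 sites, its libraries had 67.8%, 76.2% and 81.1%, against 25.5%, 41.1% and 32.1% without a motif. The lowest library with CTCF lay well above the highest library of the control. Site 221 had 79.9%, 83.9% and 90.2% with CTCF, against 34.1%, 48.6% and 42.8% without a motif (log2 difference 2.91 ± 0.43 SE, limma adjusted p = 1.22e-08). Site 236 had 67.8%, 75.6% and 80.2% with CTCF, against 22.2%, 37.4% and 27.5% without a motif (log2 difference 2.82 ± 0.43 SE, limma adjusted p = 2.35e-08). The levels at 246 and 249 lay between 63.9% and 85.98% with CTCF, against 19.2% to 43.0% without a motif. All 6 sites of the stretch passed as higher, the smallest difference being 35.2 percentage points at 213. On the side of lower positions, which was already open, no site passed in the unpaired test. Within library, however, all 4 sites from 140 to 157 were higher, by 4.90 to 7.48 percentage points. At the far end the difference had the opposite sign. Site 326 had 16.1%, 31.4% and 16.7% with CTCF, against 30.3%, 42.0% and 39.8% without a motif. Within library it passed as lower, with a mean difference of -15.97 ± 6.43 percentage points (SD, n = 3, limma adjusted p = 2.14e-07 from the shared standard error). It also passed as lower against the pool median (adjusted p = 0.00821), but not in the unpaired test (adjusted p = 0.0795).

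REST, the zinc finger repressor of neuronal genes in non-neuronal cells, rose in the same stretch. Over the 6 sites from 213 to 259 its libraries had 65.5%, 73.2% and 74.1%, against 25.5%, 41.1% and 32.1% without a motif, and all 6 sites were higher. Site 213 had 72.5%, 80.3% and 82.8% with REST, against 33.4%, 48.4% and 39.3% without a motif (log2 difference 2.41 ± 0.43 SE, limma adjusted p = 2.04e-06). Site 221 had 78.0%, 80.6% and 86.1% with REST, against 34.1%, 48.6% and 42.8% without a motif (log2 difference 2.58 ± 0.43 SE, limma adjusted p = 3.41e-07). The groups did not overlap at either site, nor at 246 and 249, where REST had 60.5% to 76.9%, against 19.2% to 43.0% without a motif. Within library, 313 and 326 were lower with REST, by -9.03 ± 3.65 and -15.2 ± 2.75 percentage points (SD, n = 3 each), and 2 sites of the low stretch, 115 and 129, were lower too, by -5.33 and -4.92 percentage points. None of these 4 sites passed in the unpaired test, where the adjusted p at 326 was 0.109. Site 157 was higher within library by 7.95 percentage points.

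Inside the window, CTCF and REST were among the least methylated constructs. The CTCF window had 4 sites, at 182, 193, 195 and 200, with means between 8.95% and 10.4%, and its outer sites were higher, at 30.03% ± 8.55 at 177 and 47.8% ± 9.30 at the last position (SD, n = 3 each). The low levels of CTCF thus had borders within the window. The 5 REST sites, from the first window position to 201, lay between 11.2% and 17.9%, with no such border. In both constructs the second library was the highest at every window site except the last of CTCF, as was the second library of the control in the low stretch.

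BANP is a BEN domain protein of CpG island promoters whose binding is blocked by CpG methylation. Its construct had 74.7%, 76.2% and 58.3% over 213 to 259, against 25.5%, 41.1% and 32.1% without a motif, and the third library was lower than the other two. All 6 sites were higher, for example 259 with 70.6%, 68.3% and 50.1% with BANP, against 18.1%, 34.2% and 21.3% without a motif (log2 difference 2.40 ± 0.43 SE, limma adjusted p = 2.04e-06). Site 249 had 76.6%, 77.1% and 61.1% with BANP, against 25.9%, 43.0% and 35.7% without a motif. The groups were apart at each of the 6 sites, among them 236 and 246 with log2 differences of 2.38 and 2.40. The gain extended to 292, at 41.2% ± 11.6 with BANP and 22.4% ± 6.66 without a motif (SD, n = 3 each, limma adjusted p = 0.0412). Sites 96 and 133, on the side of lower positions, were also higher, at 89.5% and 46.5% with BANP and 77.7% and 26.1% without a motif, but neither passed against the pool median.

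The window of BANP had a sharp edge. Sites 181, 187 and 196 averaged 22.8% ± 8.49, 19.9% ± 6.58 and 19.5% ± 5.05, while the last window position, a few bases farther, averaged 80.1% ± 2.51 (SD, n = 3 each). At the far end of the amplicon, pool 3 also had values at 337, 349 and 353, where the control had none. There the BANP libraries averaged 38.6%, 17.3% and 18.6%, against a median over the 8 constructs of the pool of 51.5%. All 3 sites were lower than the pool median, with log2 differences between -1.69 and -1.77, so BANP was low on the far side of the stretch in which it was high.

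SRF, the MADS box factor of serum-response and muscle genes, had the most sites past the test of any construct, 13 of 30, all higher. Over 213 to 259 its libraries had 59.3%, 53.2% and 82.3%, against 25.5%, 41.1% and 32.1% without a motif. The third library stood well above the other two, and without the third libraries 0 of the 13 sites passed. Site 246 had 54.8%, 49.0% and 80.6% with SRF, against 19.2%, 35.1% and 26.2% without a motif (log2 difference 2.19 ± 0.43 SE, limma adjusted p = 1.85e-05). Site 236 had 58.2%, 47.2% and 83.0% with SRF, against 22.2%, 37.4% and 27.5% without a motif (log2 difference 2.13 ± 0.43 SE, limma adjusted p = 3.30e-05). Site 213 behaved alike, with a log2 difference of 2.09. Site 133, at the end of the low stretch, had 37.5%, 39.6% and 74.9% with SRF, against 18.1%, 38.4% and 21.9% without a motif. It passed (adjusted p = 0.00465), but the groups overlapped, and it did not pass against the pool median (adjusted p = 0.189).

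With SRF the already open side was higher as well, although SRF and the control were in different pools. Site 157 had 89.6%, 88.5% and 95.4% with SRF, against 67.8%, 76.4% and 81.1% without a motif (limma adjusted p = 0.00154), and 140 and 148 were higher too. Its 2 window sites were not low: 179 averaged 76.0% ± 13.7 and 199 averaged 69.5% ± 15.0 (SD, n = 3 each). At 337 to 353 its libraries averaged 38.6%, 37.8% and 17.6%, and all 3 sites were lower than the pool median. The library with the highest values next to the window thus had the lowest at this end.

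ARNTL (also BMAL1), the bHLH-PAS activator of the circadian clock, binds an E-box, as does BHLHE40, a bHLH repressor with a role in the clock. With ARNTL, 4 of the 6 sites from 213 to 259 were higher. Site 221 had 70.9%, 61.0% and 66.7% with ARNTL, against 34.1%, 48.6% and 42.8% without a motif (log2 difference 1.43 ± 0.43 SE, limma adjusted p = 0.0142). Site 236 had 61.5%, 41.8% and 56.7% with ARNTL, against 22.2%, 37.4% and 27.5% without a motif (limma adjusted p = 0.0113). The groups did not overlap at 213, 221, 236 or 249, but at 213 the second library of ARNTL, at 48.5%, was next to the highest of the control, at 48.4%. Sites 246 and 259 did not pass, and over 213 to 259 the mean was 51.9% ± 8.31 with ARNTL and 32.9% ± 7.85 without a motif (SD, n = 3 each). Site 140 reached 90.4% ± 5.37 with ARNTL, against 78.5% ± 5.40 without a motif (SD, n = 3 each, limma adjusted p = 0.0152), which did not pass against the pool median (adjusted p = 0.0576). The 5 window sites of ARNTL were open, between 62.5% and 73.7%. The call of ARNTL rested on few libraries: without the first libraries 1 of its 6 sites passed, and without the third libraries 0 passed.

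BHLHE40 had 0 of 30 sites past the unpaired test. In the libraries it shares with the control, however, all 6 sites from 213 to 259 were higher, by 8.77 to 14.6 percentage points. Site 213 had 45.7%, 61.5% and 57.8% with BHLHE40, against 33.4%, 48.4% and 39.3% without a motif, a gain in each of the 3 libraries. This gain was 14.6 ± 3.35 percentage points (SD, n = 3, limma adjusted p = 0.000213 from the shared standard error). Its window sites at 182, 196 and the last position averaged 50.2%, 43.2% and 61.1%. With both E-box motifs the higher sites thus lay mainly on the same side of the amplicon, and the window was above 40% in each. ARNTL and BHLHE40 were in different pools and the difference between them was not tested.

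TRP53, the tumour suppressor p53, gave 5 higher sites, from 221 to 259. Site 249 had 50.1%, 68.9% and 69.9% with TRP53, against 25.9%, 43.0% and 35.7% without a motif (log2 difference 1.68 ± 0.43 SE, limma adjusted p = 0.00236). Site 236 had 41.7%, 59.9% and 57.3% with TRP53, against 22.2%, 37.4% and 27.5% without a motif (log2 difference 1.46 ± 0.43 SE, limma adjusted p = 0.0126), and 246 had a log2 difference of 1.59. The first library was the lowest in both constructs, and at 259 the groups overlapped. Site 213, nearest to the window, missed the threshold (adjusted p = 0.0732) but passed within library, by 19.8 ± 8.23 percentage points (SD, n = 3). Without the third libraries 0 of the 5 sites passed. Against the pool median, a reference that included CTCF and REST, 2 of them passed. Within library, 2 sites on the side of lower positions were lower with TRP53, 68 by -7.85 and 150 by -6.68 percentage points. The 4 window sites averaged between 27.9% and 35.7%, with the first library lowest at each.

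OctSox is the composite motif bound by the pluripotency factors OCT4 and SOX2, and its higher sites did not include those nearest to the window. Sites 213 and 221 did not pass even within library, while 246 and 259 passed in both tests. Site 259 had 39.4%, 60.6% and 41.6% with OctSox, against 18.1%, 34.2% and 21.3% without a motif (log2 difference 1.47 ± 0.43 SE, limma adjusted p = 0.0123). Site 246 had 40.9%, 58.5% and 42.5% with OctSox, against 19.2%, 35.1% and 26.2% without a motif (limma adjusted p = 0.0338). The groups did not overlap at either site. Within library the gain ran over 8 neighbouring sites from 236 to 313, from 14.6 to 22.6 percentage points. Neither 246 nor 259 passed the unpaired test without the second or without the third libraries, and 246 did not pass without the first. Against the pool median the log2 differences were 0.32 at 246 and 0.54 at 259 (adjusted p = 0.349 and 0.109). Over 213 to 259 the median of the 7 motif constructs of pool 1 was that of OctSox itself, 47.7%. That comparison thus cannot tell whether OctSox differs from the control. Over 292 to 326 the mean was 46.1% ± 4.41 with OctSox and 31.9% ± 6.96 without a motif (SD, n = 3 each). The window sites averaged 43.6% at 179, 25.3% at 191 and 26.7% at 198.

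RFX2, a winged-helix factor of ciliary genes, and MTF1, the zinc finger activator of metallothionein genes, had 0 sites past the unpaired test each. RFX2 had 41.1%, 49.6% and 46.3% over 213 to 259, against 25.5%, 41.1% and 32.1% without a motif. It was higher in every library, and all 6 sites passed within library, by 11.7 to 14.5 percentage points. Its window sites had lower means toward higher positions, with 37.7% ± 6.18 at 179, 19.8% ± 6.42 at 186, 19.3% ± 7.26 at 192 and 15.4% ± 7.20 at 199 (SD, n = 3 each). MTF1 had 47.5%, 43.6% and 50.3% over 213 to 259, against 25.5%, 41.1% and 32.1% without a motif. All of its libraries lay above those of the control, and all 6 sites were higher than the pool median, although none passed against the control. Its window sites averaged between 28.5% and 46.2%.

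ZFP423, a zinc finger factor of development, and CUX1, a homeodomain factor with cut repeats, had another profile. With ZFP423 the site next to the window, 213, was lower, with 23.7%, 29.4% and 14.3%, against 33.4%, 48.4% and 39.3% without a motif (log2 difference -1.24 ± 0.43 SE, limma adjusted p = 0.048). Farther out, 297, 303 and 313 were higher. Site 297 had 67.9%, 62.3% and 70.9% with ZFP423, against 35.5%, 46.9% and 42.0% without a motif (log2 difference 1.499 ± 0.43 SE, limma adjusted p = 0.00972), and all 4 sites also passed against the pool median. The lower call at 213 was lost without the second or the third libraries, and the 3 higher calls were lost without the first or the third. Its window sites averaged between 26.5% and 47.7%.

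CUX1 had 0 sites past the test. Its 3 sites from 213 to 236 averaged 23.9% ± 3.97 with CUX1 and 37.1% ± 7.46 without a motif (SD, n = 3 each), and its 2 window sites averaged 63.1% at 182 and 26.5% at 196. Its sites from 292 to 326 averaged 44.1% ± 1.95 with CUX1 and 31.9% ± 6.96 without a motif (SD, n = 3 each), which did not pass at any site.

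ATF4, the bZIP factor of the integrated stress response, left the profile close to that of the control. Over 213 to 259 its libraries had 24.4%, 39.0% and 31.4%, against 25.5%, 41.1% and 32.1% without a motif. The libraries of each number lay within a few points of each other, and 1 of 30 sites (33) passed within library. Against the pool median, in a pool with several motifs that were higher here, 6 sites of ATF4 were lower. E2F7, an atypical repressor of the E2F family, and TCF7, an HMG-box effector of Wnt signalling, had 1 site each past the test, again 33. Over 213 to 259 their means were 35.3% ± 4.98 for E2F7 and 30.5% ± 5.21 for TCF7 (SD, n = 3 each), and their window sites ran from 42.5% to 70.98% and from 50.9% to 66.98%. GMEB2, a SAND domain protein, had 33 and a single lower site, 150.

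Site 33, at the start of the amplicon, differed between the pools. It passed as higher in 7 of the 8 constructs of pool 3, among them E2F7 with a mean of 59.7% and SRF with 66.3%, against 35.4% ± 11.6 (SD, n = 3) without a motif. It passed in 0 constructs of pools 1 and 2, and in 0 of 23 constructs against the pool median, where E2F7 had the opposite sign. In pool 2, 7 of the 8 constructs were at an unadjusted p under 0.05. Within library, where no difference between pools enters, ATF4, RFX2 and TRP53 of the 7 motif constructs of pool 1 passed as higher. Their differences were 11.2 ± 12.8, 19.55 ± 29.5 and 10.9 ± 21.2 percentage points (SD, n = 3 each), each smaller than its SD. In the first library each of them lay below the control, at 39.3%, 38.5% and 35.0%, against 41.4%. For the constructs of pools 2 and 3, a difference between pools and a difference from the control cannot be told apart in the unpaired test. This holds at site 33 and at every other site. The third library of the control had only 22.0% there, against 41.4% and 42.8% in the other two.

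Ordered by the mean over 213 to 259, CTCF was highest at 75.0%, before REST at 70.9%, BANP at 69.7%, SRF at 64.9%, TRP53 at 56.7% and ARNTL at 51.9%. OctSox, MTF1, RFX2 and BHLHE40 followed between 44.6% and 47.7%. Neighbours in this order differed by less than the larger of their SDs between libraries, which over the 17 motifs lay between 3.37 for MTF1 and 15.4 for SRF. All 6 partners lay between 28.8% and 34.3%, around the 32.9% ± 7.85 (SD, n = 3) without a motif. The lowest were GMEB2 at 28.0%, CUX1 at 25.1% and ZFP423 at 24.7%.

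The 6 partners allow a second reading, also inside the window, since a motif and its partner share some window sites. This comparison was added after the data were seen, and except for BANP it is also one between pools. Of 197 shared sites 63 passed the limma test (32.0%), 33 higher and 30 lower with the motif. From 213 to 259, 27 of 36 were higher with the motif and 0 lower, and in the window 10 of 14 were lower and 1 higher. The window difference was largest in REST, where site 183 had 5.96%, 20.0% and 10.7% with REST, against 73.2%, 75.3% and 68.9% in REST_r. CTCF had 20.9%, 37.8% and 31.5% at 177, against 77.0%, 73.3% and 66.9% in CTCF_r. The libraries of motif and partner were far apart at both sites.

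TRP53 had 23.1%, 46.9% and 37.0% at 178, against 76.3%, 75.9% and 76.8% in TRP53_r. It was the only one of the 6 for which all 9 sites from 47 to 96 passed as lower, with differences between -10.02 and -15.2 percentage points. These constructs were in different pools. Against the control in the same libraries, TRP53 differed over these sites by -4.86 ± 3.89 percentage points (SD, n = 3). Of the 9 sites, 0 passed against the control unpaired and 1, site 68, within library. TRP53_r was 7.72 percentage points above the control of the other pool. OctSox was lower at 179, with 34.4%, 49.9% and 46.3%, against 72.4%, 68.0% and 60.2% in OctSox_r, while 198 did not pass. ATF4 had 0 of 32 sites past the test.

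BANP and BANP_r were in the same libraries, so that no difference between pools enters. Their test was unpaired all the same, and its standard error of 0.39 was shared with the pairs in different pools. Site 181 had 32.5%, 17.0% and 18.8% with BANP, against 56.0%, 67.8% and 50.1% in BANP_r. The last window position went the other way, with 79.3%, 82.9% and 78.0% with BANP, against 49.7%, 52.6% and 40.3% in BANP_r. All 6 sites from 213 to 259 were higher and all 3 from 337 to 353 were lower with BANP, with differences between -26.1 and -28.6 percentage points at these 3. Low window sites, high neighbours and a low far end were thus seen within the same libraries.

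Window sites shared by several constructs are given as a description with no test. At 179, SRF averaged 76.0%, OctSox_r 66.9%, ZFP423 46.5%, OctSox 43.6% and RFX2 37.7%. At 196, ARNTL averaged 62.5%, BANP_r 47.7%, CTCF_r 47.3%, BHLHE40 43.2%, CUX1 26.5% and BANP 19.5%. At 182, ARNTL averaged 73.7%, CUX1 63.1%, BHLHE40 50.2% and CTCF 9.95%. At the last window position, BANP averaged 80.1%, ARNTL 66.85%, BHLHE40 61.1%, TRP53_r 56.3%, CTCF 47.8% and BANP_r 47.5%. BANP was thus the lowest of those given at 196 and the highest at the last position, and CTCF, the lowest at 182, was next to the lowest there.

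Averaged over the 7 near sites, 5 of 23 constructs passed against the control (21.7%), all higher: SRF, CTCF, BANP, REST and ARNTL, with log2 differences of 1.59, 1.55, 1.48, 1.36 and 1.11. Within library, BHLHE40, RFX2 and TRP53 passed as well. Over the 23 far sites 0 constructs passed (0.0%), and 2 of 23 were at an unadjusted p under 0.05 with limma, BANP and SRF. Within library, 6 of the 7 motif constructs of pool 1 were higher at the far sites, all but ATF4, by 0.18 to 0.39 on the log2 scale. limma gave all constructs the same standard error, 0.27 for near and 0.24 for far sites unpaired, and 0.06 for far sites within library. These p-values thus do not measure the spread of a single construct. Far sites here include 246 to 259, which belong to the stretch next to the window.

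The difference of near and far sites within each library takes out the overall level of a library, and 11 of 23 constructs passed against the control (47.8%). It was higher for CTCF, REST, SRF, BANP, ARNTL, MTF1 and BHLHE40, with log2 differences from 1.24 for CTCF to 0.31 for BHLHE40. It was lower for ZFP423 (-0.76), CUX1 (-0.57), GMEB2 (-0.44) and ATF4_r (-0.31). Without the first libraries 6 constructs passed, and without the second 7. MTF1 and BHLHE40, which had no single site past the unpaired test, thus passed by this measure. The calls of MTF1, BHLHE40 and GMEB2 were lost without the first and without the second libraries. The call of ARNTL was lost without the first and without the third, and that of ATF4_r with each of the 3 left out in turn. Against the pool median ARNTL, BHLHE40 and ATF4_r did not pass (adjusted p = 0.0557, 0.188 and 0.142). For BHLHE40 that reference included CTCF and REST, which were themselves higher by this measure.

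The imbalance between both flanks, taken as the level of the 4 near sites on the side of lower positions minus that of the 3 on the side of higher positions, passed in 6 of 23 constructs (26.1%). It was smaller for CTCF (log2 difference -1.97), REST (-1.92), TRP53 (-1.53) and BANP (-1.24), with limma adjusted p-values from 3.37e-07 to 0.000974. These rest on a standard error of 0.32 shared by all constructs. It was larger for CUX1 (0.97) and ZFP423 (0.91). With CTCF, REST, BANP and TRP53 the flanks were thus closer in level. The calls of CUX1 and ZFP423 were lost without the first libraries, without the second libraries and against the pool median, where the log2 differences were 0.51 and 0.44 (adjusted p = 0.0643 and 0.356). SRF did not pass against the control in the unpaired limma test (adjusted p = 0.176). It did against the pool median, in the test paired by library (log2 difference -0.71, adjusted p = 0.0175).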

How the data were processed

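Amplicon NOMe-seq profiles of 9 libraries in 3 pools were used. The deposited values are a fraction of methylated reads per GCH site, made by the authors without counts; they are printed as percent. Per the submitters' processing notes, Trimmomatic 0.32 served for trimming. The aligner, caller, build and any coverage filter are not given in the sources used here. Sites with a value in all 3 libraries of both groups were compared as M-values (offset 0.01) with limma 3.58.1, unpaired and two-sided, with Benjamini-Hochberg adjustment over all sites or constructs of a comparison and a threshold of 0.05. Python 3.11.15 was used. The fits were tested on simulated data. Alternatives were another offset, untransformed levels, other flank widths, the pool median (paired by library), centring on far sites, a replicate block and leaving out each replicate. The within-library and partner comparisons were added after the data were seen. Replicate numbers of different pools were not treated as pairs in the main test, and same-number correlations were mixed in sign, from -0.29 to 0.51. Constructs of pool 1 share libraries with the control, so differences within library stand beside the results. The constructs, the motif lists and the division of the amplicon were chosen with earlier results of these data known. CTCF, REST, BANP, SRF, ARNTL, RFX2, OctSox, TRP53 and constructs with at least 5 sites past the threshold or a near flank past it are described with the up to 4 sites of largest difference and their window sites; further sites were picked after their values were seen. Stretches were runs of shared sites, ended by a gap over 30 bp or by crossing 50% without a motif. The results of 1 motif construct of pool 3 are not reported here, although it entered every fit and count over all constructs. CGH profiles and the NRF1 pool were not used.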

Additional observations from a re-analysis of the deposited data

How the results depend on the processing

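Of 61 sites, a replicate block across pools left 27, and leaving out 1 replicate number gave 17 to 61, among them 44 higher and 16 lower without the first libraries. Near flanks past the threshold numbered 13 against the pool median, 7 of them higher, instead of 5, all higher. With a replicate left out they numbered 5 to 10, and 7 of the 10 without the first libraries were higher. Flanks of 60 bp gave 4, with ARNTL lost (limma adjusted p = 0.107). Far sites gave 0 under every alternative except within library. With a replicate left out, near minus far gave 6 to 9 instead of 11, the flank imbalance 4 to 9 instead of 6, the nucleosomal comparison 10 to 17 instead of 15, and the partners 40 to 56 instead of 63. The other alternatives gave 10 to 14 for near minus far, and flanks of 60 bp gave 12 for the imbalance. For the 7 motif constructs of pool 1, the pairing within library gave 60 sites instead of 19, 5 near flanks instead of 2, 6 far levels instead of 0, 6 near-minus-far differences instead of 3 and 6 imbalances instead of 3. Among those near-minus-far differences, ATF4 (log2 difference -0.17) and OctSox (-0.21) were lower. Against the pool median 101 of 714 sites passed. A tally followed 48 results, the regional calls and up to 4 sites per construct, under alternatives. Of its 432 outcomes, 364 kept direction and side of the threshold, 68 missed it and 0 reversed. The cause was not tested. Site 33 of E2F7 was not in the tally. Of all 61 sites, 2 had the other sign against the pool median, both at 33. Depth is unknown, and 3 libraries against 3 set the precision.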

Other observations

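Against the control, a single site was lower in the construct of GMEB2, the SAND domain protein. Site 150 had 61.1%, 56.3% and 56.4% with GMEB2, against 75.8%, 83.2% and 83.0% without a motif (log2 difference -1.57 ± 0.43 SE, limma adjusted p = 0.00552), and it also passed against the pool median (adjusted p = 0.000584). It did not pass without the second or the third libraries. It was chosen after its values were seen.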
